A study of Mus musculus with 3 samples.

Results

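The cells described here were called neural-fated ectoderm because they carried transcripts of Sox2 together with a gene of the early neural plate. A member had 1 or more UMIs (unique molecular identifiers, each counting 1 captured RNA molecule) of Sox2. It also had at least 1 UMI of Six3, Hesx1, Sox1 or Lhx5, and none of T (brachyury), Mesp1, Sox17 or Eomes. The visceral endoderm genes Ttr, Apoa1, Apoc2, Rbp4, Apob and Afp together made up under 0.1% of its UMIs. The rule was met by 231 of 21573 barcodes, out of 27873 in all, after barcodes under 1000 detected genes or over 10% mitochondrial UMIs were left out. The members were thus selected on the UMIs of these genes, and nothing is tested on them.

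Single-cell RNA was captured by the droplet method of 10x Genomics from normal mouse embryos of the ARC strain at gastrulation. There were 3 libraries with 1 library per group, labelled by day of gestation as E7.0, E7.25 or E7.5 posterior. The sources used here do not say how the posterior of the last was cut or how many embryos were pooled in each, so the spread between embryos is unknown.

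As background, neural ectoderm arises from the anterior and lateral epiblast that does not enter the primitive streak. Its cells keep Sox2, lose the pluripotency factors by steps, and are placed along the head to tail axis by WNT, FGF and BMP signals and the inhibitors of these. Six3 and Hesx1 are homeobox genes of the most anterior plate, Lhx5 is a LIM homeobox gene of the forebrain field, and Sox1 is a SoxB1 factor that marks committed neural cells. T and Eomes mark the streak, Mesp1 marks early mesoderm, and Sox17 marks definitive endoderm.

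The members numbered 26 of 7941 kept cells at E7.0 (0.327%, exact 95% interval 0.214% to 0.479%). They numbered 86 of 5194 at E7.25 (1.66%, 1.33% to 2.04%), and 119 of 8438 in the E7.5 posterior library (1.41%, 1.17% to 1.69%). The summed UMIs of the members were 441426 at E7.0, 747305 at E7.25, and 1622648 in the E7.5 posterior library, and the intervals cover counting error only. The whole libraries held 111010034, 48836272 and 92190474 UMIs in that order of stage. The median member had 12984 UMIs at E7.0, 8257 at E7.25, and 12039 in the E7.5 posterior library. Barcodes shared between pairs of libraries numbered 14 to 35, and 0 to 3 of the members of a library had a barcode that was also in another.

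Six3 defined most of the members. It was the only neural gene seen in 113 of them, against 53 for Lhx5, 21 for Hesx1 and 17 for Sox1. Six3 with Lhx5 was the most frequent pair, in 16 cells, none of them at E7.0. In all, 204 members carried 1 of the 4 neural genes, 25 carried 2 and 2 carried 3. Most members thus rest on a single molecule: 25 of 26 at E7.0, 59 of 86 at E7.25, and 91 of 119 in the E7.5 posterior library had exactly 1 neural UMI. These values chose the cells and are given as a description. Members with 1 neural UMI or 1 Sox2 UMI sit on those limits of the rule. For the visceral endoderm share the highest members stood at 0.0924% at E7.25, and 0.0922% in the E7.5 posterior library. The nearest cells outside stood at 0.114% and 0.101% at those stages.

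Six3 lies on chromosome 17 from 85613608 to 85629302 on the plus strand (GRCm38, GENCODE M21). The members held 13 UMIs of Six3 at E7.0, 71 at E7.25, and 96 in the E7.5 posterior library. Lhx5, on chromosome 5 from 120431699 to 120441223, had 15.9, 49.5 and 25.9 CPM (UMIs of a gene relative to all UMIs of the set, on the CPM scale usual for counts) in order of stage. Hesx1 stood between 9.06 and 13.4 CPM and Sox1 between 6.80 and 9.37 CPM in the 3 libraries. The highest count in 1 cell was 6 UMIs of Six3, in the E7.5 posterior library.

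A single UMI can also come from free RNA in the droplet, so the neural genes were also counted in cells of other types. Whether a UMI there was free RNA or expression was not tested. The members were 4.69% of the Sox2 cells that passed the other limits at E7.0, 14.1% at E7.25, and 16.1% in the E7.5 posterior library. Cells with 2 or more UMIs of the lateral mesoderm genes Hand1, Foxf1 and Kdr carried a neural UMI in 4.83% of cases at E7.0, 4.07% at E7.25, and 2.19% in the E7.5 posterior library. After each cell was thinned to 5000 UMIs the shares of Sox2 cells were 1.44%, 10.9% and 9.48%, and those of lateral mesoderm gene cells 1.63%, 1.36% and 1.39%. At E7.0 the share of Sox2 cells did not exceed that of lateral mesoderm gene cells, of which 33 of the 48 with a neural UMI carried Lhx5. Visceral endoderm gene cells, the other set counted, carried a neural UMI in 1.29% of cases at E7.0 (exact 95% interval 0.354% to 3.28%). Of these 4 cells, 3 carried Hesx1. With all UMIs, the intervals at E7.25 were 11.4% to 17.1% for Sox2 cells and 2.97% to 5.43% for lateral mesoderm gene cells, which do not overlap. Cells with both T and Sox2 carried a neural UMI in 10.7% of cases at E7.0 (2.27% to 28.2%) and 11.6% at E7.25 (5.14% to 21.6%). In the E7.5 posterior library the share was 9.30% (5.41% to 14.7%). These intervals overlapped those of the Sox2 cells without T at each stage, so the neural genes were not particular to the members. The thinned intervals of Sox2 cells at the 2 later stages, 8.21% to 14.0% and 7.18% to 12.2%, overlapped each other.

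**Figure D1:**
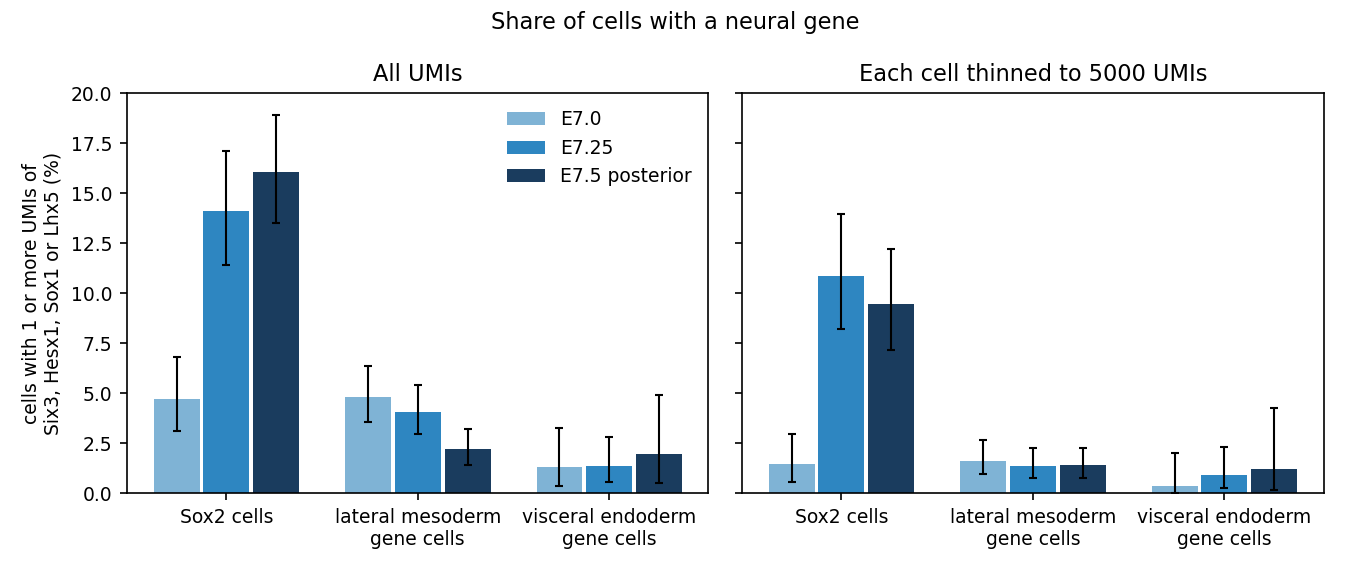
Share of cells (%, vertical axis) with 1 or more UMIs of Six3, Hesx1, Sox1 or Lhx5 among Sox2 cells without streak or visceral endoderm genes, lateral mesoderm gene cells and visceral endoderm gene cells (2% or more of UMIs from visceral endoderm genes). Bars are libraries and lines are exact 95% intervals, with all UMIs on the left and each cell thinned to 5000 UMIs on the right; Sox2 cells stand at 4.69%, 14.1% and 16.1% on the left.

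The single genes differed in how far they stood above this level. Six3 was seen in 9.32% of Sox2 cells and 0.527% of lateral mesoderm gene cells at E7.5 posterior, and in 8.69% and 2.87% at E7.25. Lhx5 was seen in 5.00% of Sox2 cells and 1.32% of lateral mesoderm gene cells at E7.5 posterior. At E7.0, Lhx5 was seen in 1.26% of Sox2 cells and 3.32% of lateral mesoderm gene cells. Six3 at E7.0 was seen in 2.35% of Sox2 cells (1.26% to 3.98%), 0.905% of lateral mesoderm gene cells (0.415% to 1.71%) and 0 of 309 visceral endoderm gene cells. The lateral mesoderm and visceral endoderm gene cells thus gave different levels at E7.0, and the intervals of Six3 in Sox2 and lateral mesoderm gene cells overlapped there. Hesx1 was seen in 1.31% of Sox2 cells and 0.740% of lateral mesoderm gene cells at E7.25, with overlapping intervals. The results below are given with and without the E7.0 library where it matters.

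Beyond the genes of the rule, many genes of regional brain identity had few or no UMIs in the members. Genes of low level can be missed at the summed depth of the members. No share over all genes is given beside the counts that follow. Of 18 genes of the forebrain and anterior neural plate, 4 had no UMI in any member and 11 had 3 or fewer. The forebrain factors Six6, Fezf1, Fezf2 and Nkx2-1 were the 4 without a UMI. Of 23 genes of the midbrain, hindbrain and spinal cord, 7 had no UMI and 12 had 3 or fewer. Of 10 genes of neuronal differentiation, 2 (Dcx and Atoh1) had no UMI and 5 had 3 or fewer. Others of that list were detected, with Stmn2, a stathmin gene, at 92.9, 118 and 135 CPM in neural-gene cells and 81.4, 124 and 131 CPM in Sox2-only cells. Pou5f1, the core pluripotency factor, had 924 CPM at E7.0, 496 CPM at E7.25, and 574 CPM in the E7.5 posterior library. The DNA methyltransferase gene Dnmt3b, high in the epiblast, had 1389, 1575 and 1415 CPM. The cells are called neural-gene cells below, after the rule that chose them.

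Markers of other cell types were not all at 0. Node genes outside the rule summed to 9.06, 1.34 and 4.93 CPM in the 3 libraries by stage, with Noto and Shh at 0. Nascent and paraxial mesoderm genes summed to 4.53, 6.69 and 8.01 CPM, with Msgn1 at 0. Other lists stood higher. Blood and endothelium genes summed to 27.2, 26.8 and 27.1 CPM by stage, and primordial germ cell genes to 31.7, 40.1 and 33.9 CPM. Lateral and extraembryonic mesoderm genes summed to 2.27, 45.5 and 20.95 CPM, and visceral endoderm genes outside the rule to 31.7, 54.9 and 22.2 CPM. Extraembryonic ectoderm and trophoblast genes summed to 11.3 CPM at E7.0, 97.7 CPM at E7.25, and 17.3 CPM in the E7.5 posterior library. Rhox5, an X-linked homeobox gene of trophoblast, made up most of the E7.25 value with 48 UMIs.

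The first comparison set the neural-gene cells against Sox2-only cells. These had passed the same limits and carried no UMI of the 4 neural genes, and they numbered 528 at E7.0, 524 at E7.25, and 621 in the E7.5 posterior library. The median Sox2-only cell had 10837.5, 8382 and 10128 UMIs by stage, against 12984, 8257 and 12039 for neural-gene cells. The neural-gene cells were thus deeper at E7.0 and E7.5 posterior. The comparison asks what else differs once Sox2 cells are split by the neural genes. UMIs were summed per library and set and compared within libraries. The BMP response gene Id1 was 2.16-fold higher in neural-gene cells and Trh was 3.03-fold lower, each in 3 of 3 libraries. Otx2, Id2 and Id3 were also higher, and the FGF response gene Etv5, Sema6a and Apela were lower. In all, 7 genes were higher (0.0712% of 9832 tested) and 17 were lower (0.173%), by edgeR's quasi-likelihood test with Benjamini-Hochberg adjustment. The genes of the rule were not tested. The 3 libraries are of different stages, and the p-values do not measure the spread between embryos. The common dispersion, the spread of the sums beyond UMI counting, was 0.00056 in this fit and 0.0011 in the second comparison below. The p-values thus lie close to the counting error of pooled UMIs. A small p-value does not mean like folds in the 3 libraries: Fst passed with log2 ratios of 0.66, -2.53 and -1.10 by stage. DESeq2 called 2 genes, Id1 and Trh, edgeR called 2 without the E7.5 posterior library, and 0 passed when library was not a term in the fit.

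Id1, Id2 and Id3 encode inhibitors of basic helix-loop-helix factors and are direct targets of BMP signalling through SMAD proteins. Id1 (chromosome 2, 152736251 to 152737410, plus strand) had 197, 250 and 356 CPM in neural-gene cells in order of stage, against 91.4, 129 and 154 CPM in Sox2-only cells. Each value of the neural-gene cells lay above all 3 of the Sox2-only cells. The log2 fold change was 1.11 with a standard error (SE) of 0.07 and an adjusted p of 3.9e-49 in edgeR's test. DESeq2 gave an adjusted p of 6.8e-19. Without the E7.0 library the log2 fold change of Id1 was 1.11 (edgeR adjusted p = 5.5e-42).

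Id2 (chromosome 12, 25093799 to 25097140, minus strand) had 58.9, 135 and 123 CPM in neural-gene cells, against 28.9, 126 and 56.6 CPM in Sox2-only cells, in order of stage. The 2 sets were close at E7.25 and apart at the other stages. The log2 fold change of Id2 was 0.70 (SE 0.11, edgeR adjusted p = 6.8e-08). Id3 (chromosome 4, 136143497 to 136145755, plus strand) had 433, 313 and 391 CPM in neural-gene cells, against 314, 218 and 349 CPM in Sox2-only cells. Id3 was higher in 3 of 3 libraries with overlapping ranges, by 0.32 on the log2 scale (SE 0.06, edgeR adjusted p = 0.00011). With DESeq2 neither passed, with adjusted p = 0.48 for Id2 and 0.25 for Id3.

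The sequence upstream of the transcription start is shown for the 2 of these genes that the RefSeq promoter table (GRCm38.p6) holds, since SMAD proteins bind short motifs near such starts. Each line gives the 250 bases before the start, 5′ to 3′ on the strand of the gene, as RefSeq places that start. The GENCODE spans given above begin farther upstream for both genes, so the stretches lie within those spans. Capitals mark GGCGCC and CAGAC on either strand, 2 motifs known to bind SMAD proteins. The Id2 stretch is chr12:25096093-25096342 on the minus strand and the Id3 stretch is chr4:136143572-136143821 on the plus strand.
Id2: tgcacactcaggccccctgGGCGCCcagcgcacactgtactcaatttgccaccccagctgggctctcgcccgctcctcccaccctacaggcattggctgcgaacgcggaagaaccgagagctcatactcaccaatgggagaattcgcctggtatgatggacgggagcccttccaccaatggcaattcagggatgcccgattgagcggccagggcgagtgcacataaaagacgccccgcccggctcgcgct
Id3: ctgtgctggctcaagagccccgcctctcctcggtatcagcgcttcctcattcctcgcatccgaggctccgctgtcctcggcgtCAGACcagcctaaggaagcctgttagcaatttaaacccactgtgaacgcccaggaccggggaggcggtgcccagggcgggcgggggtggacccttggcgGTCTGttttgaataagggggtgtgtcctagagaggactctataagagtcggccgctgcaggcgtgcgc
The Id2 stretch holds 1 GGCGCC and 0 CAGAC, and the Id3 stretch holds 0 GGCGCC and 2 CAGAC, with no overlap between motifs. Over all 32851 stretches of that length in the table, 9.59% hold GGCGCC and 42.2% hold CAGAC. These are matches of letters and not measured binding.

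The other 2 genes of the BMP list that reached 20 CPM and were tested did not pass. Smad7, an inhibitory SMAD, had a log2 fold change of -0.47 (SE 0.30, edgeR adjusted p = 0.88), and the receptor gene Bmpr1a had 0.20 (SE 0.16, edgeR adjusted p = 0.92). The BMP list therefore had 3 of 5 genes higher and 0 lower, with a median log2 fold change of 0.32. Over all 5948 genes tested at that level, 0.101% were higher and 0.235% lower, and the median was -0.0011. The ligand genes Bmp2, Bmp4 and Bmp7 stayed under 20 CPM in both sets, with Bmp4 at 13.4 CPM in neural-gene cells and 15.7 CPM in Sox2-only cells at E7.25.

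Otx2, a homeobox gene required for the anterior head, lies on chromosome 14 from 48657677 to 48673819 on the minus strand. It had 199, 202 and 210 CPM in neural-gene cells in order of stage, against 164, 149 and 138 CPM in Sox2-only cells. The ranges of the 2 sets did not overlap, and the log2 fold change was 0.48 (SE 0.08, edgeR adjusted p = 7.5e-07). Without E7.0 it was 0.53 (edgeR adjusted p = 1.9e-06), and DESeq2 gave an adjusted p of 0.25. Of the anterior list, 3 of 18 genes reached 20 CPM and were tested, of which Otx2 passed. Sfrp1, which encodes a secreted WNT antagonist, had a log2 fold change of 0.43 (SE 0.12, edgeR adjusted p = 0.089). Shisa2, which encodes an inhibitor of WNT and FGF receptor maturation, had 0.89 (SE 0.28, edgeR adjusted p = 0.24). Tle4, a Groucho family corepressor, passed with 68.0, 65.6 and 64.7 CPM in neural-gene cells and 53.1, 32.7 and 48.2 CPM in Sox2-only cells (log2 fold change 0.55, SE 0.13, edgeR adjusted p = 0.024). The remaining higher genes, Dlx5 and Atl3, lay under 30 CPM and are named after their values were seen. Dlx5 belongs to the surface ectoderm list, a list of genes outside the neural plate, and lay under 20 CPM. Of the 16 genes of that list, 3 were tested at 20 CPM and 0 passed in either direction, with a median of -0.11. Over all 5948 genes tested at that level, 0.101% were higher and 0.235% lower.

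General genes of the early neural plate were not called between the 2 sets, where few genes were called at all. Of 22 such genes, 13 reached 20 CPM and were tested, and 0 passed in either direction, with a median log2 fold change of -0.05. Over all 5948 genes tested at that level, 0.101% were higher and 0.235% lower. A count of 0 in a list of this size is near those shares. The SoxC factor Sox11 had 154, 233 and 243 CPM in neural-gene cells, against 147, 213 and 241 CPM in Sox2-only cells by stage. Its log2 fold change was 0.05 with SE 0.07. Sox3, the other early SoxB1 factor, had a log2 fold change of -0.26 (SE 0.21, edgeR adjusted p = 0.92). Irx3, an Iroquois homeobox gene of the neural plate, had 18.1, 97.7 and 91.2 CPM in neural-gene cells and 7.69, 77.8 and 66.9 CPM in Sox2-only cells. Irx3 did not pass (log2 fold change 0.43, SE 0.12, edgeR adjusted p = 0.13). The neuronal gene Tubb3 had a log2 fold change of -0.51 (SE 0.15, edgeR adjusted p = 0.15).

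Trh encodes the precursor of thyrotropin releasing hormone and was listed here with endoderm markers. It lies on chromosome 6 from 92242061 to 92244650 on the minus strand. It had 52.1, 28.1 and 25.3 CPM in neural-gene cells, against 182, 79.3 and 71.6 CPM in Sox2-only cells, in order of stage. All 3 values of the neural-gene cells lay below those of the Sox2-only cells. The log2 fold change was -1.60 (SE 0.14, edgeR adjusted p = 2.0e-25), and -1.51 without E7.0 (edgeR adjusted p = 3.9e-14). DESeq2 gave an adjusted p of 1.0e-09. The 7 anterior visceral or definitive endoderm markers outside the rule, Trh among them, summed to 72.5, 53.5 and 39.4 CPM in neural-gene cells and 204, 117 and 89.0 CPM in Sox2-only cells, and Trh itself made up most of the difference. Foxa1 was at 0 in the neural-gene cells of all 3 libraries.

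Of the FGF pathway genes, Etv5 was lower and the others did not pass. Etv5, an ETS factor induced by FGF signalling, had 34.0, 21.4 and 16.0 CPM in neural-gene cells, against 51.5, 39.0 and 33.9 CPM in Sox2-only cells. It was lower at each stage, with a log2 fold change of -0.90 (SE 0.19, edgeR adjusted p = 0.0019), although the ranges overlapped across stages. Its relative Etv4 had a log2 fold change of -0.75 (SE 0.25, edgeR adjusted p = 0.335). The feedback phosphatase gene Dusp6 had -1.15 (SE 0.34, edgeR adjusted p = 0.15). Over all 5948 genes tested at 20 CPM, 0.101% were higher and 0.235% lower. Of the 6 FGF pathway genes among them, 0 were higher and 1 was lower, with a median of -0.80. Fgfr1, a receptor gene, was the member with a positive log2 fold change, 0.29 (SE 0.12, edgeR adjusted p = 0.53).

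Sema6a, which encodes a semaphorin, had 63.4, 52.2 and 35.1 CPM in neural-gene cells, against 92.7, 78.0 and 66.7 CPM in Sox2-only cells. Its ranges did not overlap (log2 fold change -0.74, SE 0.14, edgeR adjusted p = 6.5e-05). Apela, which encodes a peptide ligand of the apelin receptor, had 27.2, 8.03 and 11.7 CPM in neural-gene cells and 40.5, 20.1 and 36.1 CPM in Sox2-only cells. Apela was lower at each stage (log2 fold change -1.29, SE 0.22, edgeR adjusted p = 1.4e-05). Of the pluripotency genes, 17 were tested at 20 CPM. Otx2 was higher and Etv5 lower, the other 15 did not pass, and the median was -0.10. Over all 5948 genes tested at that level, 0.101% were higher and 0.235% lower. Pou5f1 had a log2 fold change of -0.15 (SE 0.05, edgeR adjusted p = 0.23).

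Extraembryonic ectoderm genes summed to 11.3, 97.7 and 17.3 CPM in neural-gene cells and 46.8, 220 and 15.9 CPM in Sox2-only cells by stage. Rhox5 had 0, 64.2 and 1.85 CPM in neural-gene cells, against 28.6, 144 and 5.19 CPM in Sox2-only cells (log2 fold change -1.35, SE 0.20, edgeR adjusted p = 2.2e-08). When cells with a UMI of Elf5 or Wnt7b, or 3 or more of Rhox5, were left out, 7 genes were higher and 10 lower. Phlda2 (log2 fold change -0.37, edgeR adjusted p = 0.52) and H19 (-0.32, 0.81), both imprinted growth genes, then did not pass. Rhox5 did not pass either, which the removal by Rhox5 itself fixes. Id1 then had a log2 fold change of 1.14, Trh -1.53, Id2 1.04 and Otx2 0.45, each past the threshold in edgeR's test.

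**Figure D2:**
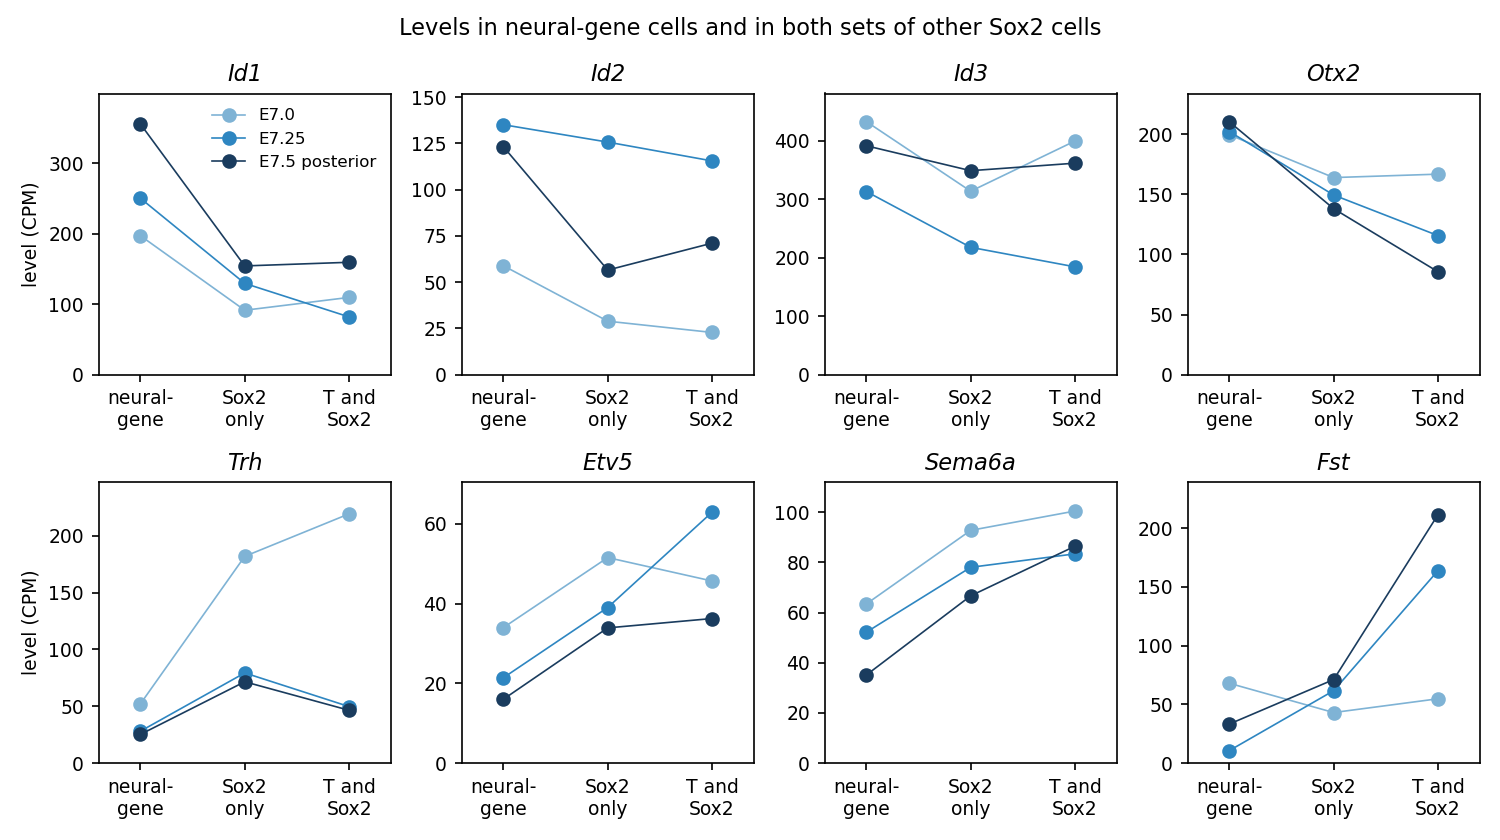
Level (CPM, vertical axis from 0) of 8 genes in neural-gene cells, Sox2-only cells and cells with T and Sox2, from left to right. Each point is the sum over the cells of 1 library and lines join the sets of a library. Id1 and Otx2 are highest in neural-gene cells at all 3 stages, and Trh is lowest there.

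The second comparison set the neural-gene cells against cells with brachyury and Sox2. These T/Sox2 cells had 1 or more UMIs of T and Sox2 and met the other limits, whether or not they had a neural UMI. They numbered 28 at E7.0, 69 at E7.25, and 172 in the E7.5 posterior library. In all, 40 genes were higher in neural-gene cells (0.646% of 6188 tested) and 96 lower (1.55%), by edgeR's test at an adjusted p under 0.05. Among the higher genes were Otx2, Sfrp1, Id1 and Dnmt3b. Among the lower ones were 3 of 3 caudal epiblast genes, 3 of 4 WNT targets and 4 of 7 FGF pathway genes tested at 20 CPM. Without the E7.0 library 74 were higher and 160 lower, and without the E7.5 posterior library 4 and 22. DESeq2 called 14 genes, and 1 passed when library was not a term in the fit.

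On the anterior side, Otx2 had 167, 116 and 85.5 CPM in T/Sox2 cells by stage, below its 199, 202 and 210 CPM in neural-gene cells. The log2 fold change was 0.95 (SE 0.11, edgeR adjusted p = 1.3e-14). Sfrp1 had 52.1, 96.3 and 89.4 CPM in neural-gene cells and 29.7, 68.8 and 42.3 CPM in T/Sox2 cells. It was higher at each stage (log2 fold change 0.87, SE 0.17, edgeR adjusted p = 2.4e-05). Irx3 was higher by 0.74 (SE 0.17, edgeR adjusted p = 0.0011), with 11.4, 79.0 and 46.5 CPM in T/Sox2 cells. Tcf7l1, which encodes a repressor of WNT target genes, was higher by 0.56 (SE 0.14, edgeR adjusted p = 0.0032). Id1 was higher by 1.21 (SE 0.10, edgeR adjusted p = 1.2e-29), with 110, 81.9 and 159 CPM in T/Sox2 cells. Id2 was higher by 0.65 (SE 0.14, edgeR adjusted p = 0.00040), and Id3 did not pass (0.25, SE 0.08, edgeR adjusted p = 0.064).

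Most of the WNT targets tested were lower in neural-gene cells than in T/Sox2 cells, 2 sets that the selection splits by T. Against Sox2-only cells, 0 of 2 WNT targets and 0 of 2 caudal epiblast genes tested at 20 CPM were called. Their median log2 fold changes there were -0.40 and -0.45, and few genes of any kind were called (0.101% higher and 0.235% lower). Sp5, a zinc finger gene induced by WNT, had 2.27, 1.34 and 15.4 CPM in neural-gene cells, against 36.5, 43.9 and 84.1 CPM in T/Sox2 cells. The sets lay far apart at every stage (log2 fold change -2.78, SE 0.26, edgeR adjusted p = 2.1e-22). Lef1, the transcriptional partner of beta-catenin, had 20.4, 24.1 and 19.7 CPM in neural-gene cells and 41.1, 42.4 and 52.5 CPM in T/Sox2 cells (log2 fold change -1.18, SE 0.24, edgeR adjusted p = 6.9e-05). Axin2, a feedback inhibitor of the pathway, was lower in 2 of 3 libraries (log2 fold change -0.91, SE 0.28, edgeR adjusted p = 0.048), and did not pass without node-gene cells (edgeR adjusted p = 0.069). Of 4 WNT targets tested at 20 CPM, 3 were lower and 0 higher, with a median of -1.05. Over all 5966 genes tested at that level 0.67% were higher and 1.61% lower, with a median of 0.0013.

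Of the FGF list, 4 of 7 genes were lower and 0 higher, with a median of -1.09. Over all 5966 genes tested at 20 CPM, 1.61% were lower and 0.67% higher. Fgf8, a ligand gene of the streak, had 20.4, 0 and 6.16 CPM in neural-gene cells, against 22.8, 29.3 and 59.0 CPM in T/Sox2 cells. The sets were close at E7.0 and apart later (log2 fold change -2.70, SE 0.31, edgeR adjusted p = 4.3e-15). Dusp6 had 13.6, 6.69 and 3.08 CPM in neural-gene cells and 38.8, 21.9 and 16.7 CPM in T/Sox2 cells (log2 fold change -1.91, SE 0.40, edgeR adjusted p = 0.00017). Etv5 was lower with a log2 fold change of -1.13 (SE 0.24, edgeR adjusted p = 0.00029) and Etv4 with -1.09 (SE 0.32, edgeR adjusted p = 0.037). The caudal epiblast list, which shares Fgf8 and Sp5 with the lists above, had 3 of 3 tested genes lower, the third being Grsf1. Grsf1, an RNA-binding protein gene, had a log2 fold change of -1.09 (SE 0.15, edgeR adjusted p = 4.7e-10), with the opposite order at E7.0.

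**Figure D3:**
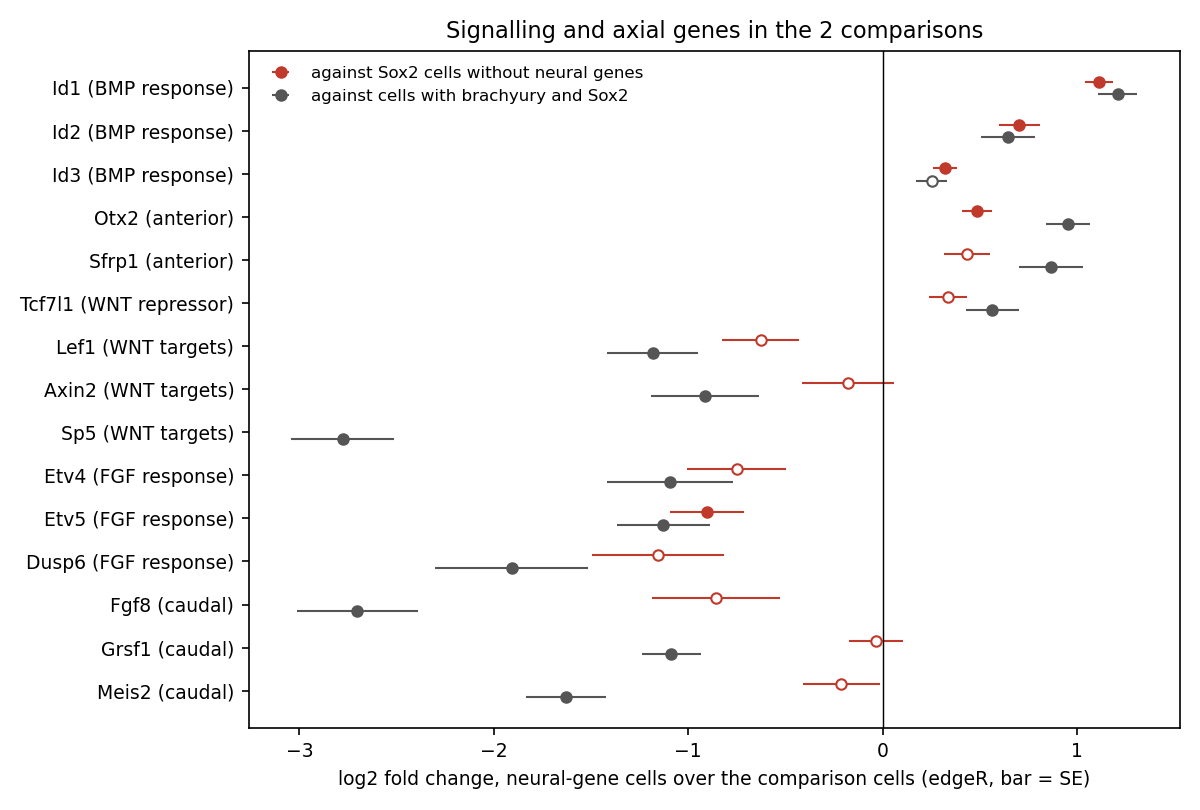
Log2 fold change (horizontal axis) of signalling and axial genes in neural-gene cells over Sox2-only cells (red) and over T/Sox2 cells (grey), with bars of 1 SE. Filled points passed an adjusted p of 0.05 in edgeR's test and open points did not; the Id genes and Otx2 lie to the right of 0, and Sp5 and Fgf8 farthest to the left, with log2 fold changes of -2.78 and -2.70 over T/Sox2 cells.

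Other genes that differed include a homeobox gene and a cell cycle gene. Meis2, a homeobox cofactor of HOX proteins, had 9.06, 17.4 and 30.2 CPM in neural-gene cells and 9.13, 62.9 and 95.7 CPM in T/Sox2 cells. The difference of Meis2 lay at E7.25 and E7.5 posterior (log2 fold change -1.63, SE 0.21, edgeR adjusted p = 1.9e-12). Cdkn1a, a cell cycle inhibitor gene, had 4.53, 2.68 and 14.2 CPM in neural-gene cells and 22.8, 41.0 and 47.9 CPM in T/Sox2 cells (log2 fold change -2.12, SE 0.29, edgeR adjusted p = 1.8e-10).

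Fst encodes follistatin, a secreted inhibitor of activin and BMP ligands. It had 68.0, 10.7 and 33.3 CPM in neural-gene cells, against 54.8, 164 and 211 CPM in T/Sox2 cells, so that it was lower at the later stages only. The log2 fold change was -2.37 with E7.0 (SE 0.16, edgeR adjusted p = 2.6e-48) and -2.89 without it (edgeR adjusted p = 1.6e-61), and DESeq2 did not call it. Against Sox2-only cells, with 43.1, 61.7 and 71.1 CPM, the log2 fold change of Fst was -0.94 with E7.0 (SE 0.15, edgeR adjusted p = 1.9e-06) and -1.41 without it. In both comparisons the E7.0 library ran the other way.

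A few pluripotency and epithelial genes were higher in neural-gene cells than in T/Sox2 cells, and others of these lists were lower or did not pass. Dnmt3b, at 1389, 1575 and 1415 CPM in neural-gene cells, had 1173, 1084 and 1069 CPM in T/Sox2 cells. Its ranges did not overlap (log2 fold change 0.41, SE 0.05, edgeR adjusted p = 7.4e-13). Slc7a3, a cationic amino acid transporter gene, was higher by 0.84 (SE 0.15, edgeR adjusted p = 4.4e-06) and Utf1, a chromatin factor gene, by 0.48 (SE 0.09, edgeR adjusted p = 5.9e-06). Of 16 pluripotency genes tested, 4 were higher and 2, Etv4 and Etv5, were lower, with a median of 0.11. Epcam and Cldn7, which encode epithelial adhesion and junction proteins, were higher by 0.33 and 0.40 on the log2 scale. Vim and Fn1, of intermediate filament and matrix, were lower, with log2 fold changes of -0.90 and -0.87. The adhesion list had 2 higher, 2 lower and 7 not called of 11 genes, with a median of 0.15. Over all 5966 genes tested at 20 CPM, 0.67% were higher and 1.61% lower.

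Node genes summed to 9.06, 1.34 and 4.93 CPM in neural-gene cells and 103, 61.4 and 55.3 CPM in T/Sox2 cells. Foxj1, the master gene of motile cilia, was lower with a log2 fold change of -4.38 (SE 0.55, edgeR adjusted p = 1.3e-12). Predicted doublets were 0, 1 and 1 of the neural-gene cells and 1, 7 and 21 of the T/Sox2 cells, in order of stage. Without cells that carried a UMI of Foxj1, Noto or Shh, 31 genes were higher and 69 lower. Otx2 (0.89), Id1 (1.17), Sp5 (-2.49) and Fst (-2.40) kept their direction and passed. Krt8, a keratin gene, had a log2 fold change of -0.70 with those cells and -0.11 without them (edgeR adjusted p = 0.94).

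The neural-gene cells were also split by which neural gene they carried. Cells with Six3 or Hesx1 numbered 60 at E7.25, and 82 in the E7.5 posterior library, and cells with Lhx5 or Sox1 alone numbered 26 and 37. At E7.0 the sets held 16 and 10 cells and were not compared. Of 5268 genes tested, 2 were higher (0.038%) and 3 lower (0.0569%) in cells with Six3 or Hesx1, by edgeR's test with 2 libraries. Fst had 5.70 and 12.9 CPM in cells with Six3 or Hesx1 at E7.25 and E7.5 posterior, against 22.7 and 85.0 CPM in cells with neither gene. Its log2 fold change was -2.58 (SE 0.40, edgeR adjusted p = 0.00076), and the lower set rests on 3 and 15 UMIs. The cells with neither gene held 220690 UMIs in all at E7.25, so 22.7 CPM of Fst there is also only a few UMIs. The difference thus rests mostly on the E7.5 posterior library.

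Cdx2, a caudal homeobox gene, had 5.70 and 1.72 CPM in cells with Six3 or Hesx1, against 27.2 and 24.0 CPM in cells with neither. These are 3 and 2 UMIs against 6 and 11 UMIs, with log2 ratios of -2.25 (95% interval -4.88 to -0.03) at E7.25, and -3.80 (-7.02 to -1.61) in the E7.5 posterior library. The edgeR adjusted p was 0.047. Rtl8b, a retrotransposon-derived gene, was lower with the same adjusted p of 0.047. Cdx2 and Rtl8b did not pass without predicted doublets, extraembryonic ectoderm genes or node genes (edgeR adjusted p from 0.15 to 0.40), and DESeq2 called neither these nor Fst. Malat1, a nuclear long noncoding RNA, had 2695 and 2920 CPM in cells with Six3 or Hesx1, against 2021 and 1964 CPM in cells with neither (log2 fold change 0.51, SE 0.06, edgeR adjusted p = 3.7e-06). At E7.0, outside the test, Malat1 stood the other way, at 2931 CPM in the 16 cells with Six3 or Hesx1 and 3949 CPM in the 10 with neither. The other higher gene, the noncoding RNA Gm26917, had 285 and 237 CPM in cells with Six3 or Hesx1 and 190.3 and 119.9 CPM in cells with neither (edgeR adjusted p = 0.036) and is named after its values were seen. It also ran the other way at E7.0, with 104 against 130.4 CPM. Otx2 had 216 and 245 CPM in cells with Six3 or Hesx1 and 168 and 122 CPM in cells with neither, and did not pass (0.77, SE 0.17, edgeR adjusted p = 0.080). The 3 genes Id1, Id2 and Id3 had log2 fold changes of 0.30, -0.22 and 0.08 with adjusted p of 0.71 or more in edgeR's test.

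**Figure D4:**
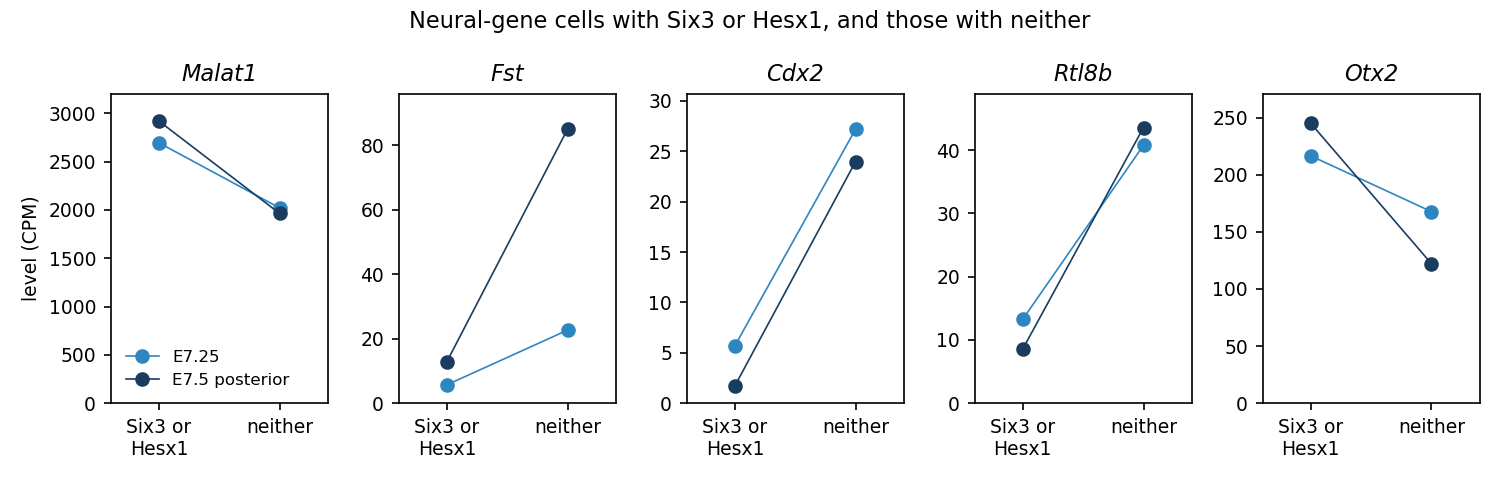
Level (CPM, vertical axis from 0) of 5 genes in neural-gene cells with Six3 or Hesx1 (left) and in those with neither (right), with 1 point for the sum of each set in a library. Fst and Cdx2 are lower on the left in both libraries; Otx2 did not pass the test.

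Across stages there was 1 library per group and no test, so levels are given with exact Poisson or conditional binomial 95% intervals that cover counting error only. Stage, embryos and library cannot be told apart. The label of the E7.5 posterior library also names a part of the embryo, so stage and region cannot be told apart there either. Among genes at 50 CPM or more in 1 of the 2 libraries, E7.25 differed from E7.0 by 2-fold or more for 111 higher (3.74% of 2965) and 92 lower genes (3.1%). With TMM (trimmed mean of M-values) factors these became 96 higher and 110 lower, so the balance of the 2 directions depends on the scaling. E7.5 posterior differed from E7.25 for 46 higher (1.56% of 2944) and 47 lower (1.6%) genes. With TMM factors these became 56 higher and 36 lower. E7.5 posterior differed from E7.0 for 33 higher (1.16% of 2835) and 31 lower (1.09%) genes. The E7.0 values come from 26 cells and are set beside those of Sox2-only cells.

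Irx3 had 18.1 CPM at E7.0 (interval 7.82 to 35.7), 97.7 CPM at E7.25 (76.6 to 123), and 91.2 CPM in the E7.5 posterior library (77.1 to 107) in neural-gene cells. The log2 ratio was 2.43 (1.38 to 3.70) for E7.25 over E7.0 and -0.10 (-0.51 to 0.33) for E7.5 posterior over E7.25. Sox2-only cells had 7.69, 77.8 and 66.9 CPM of Irx3, a step of the same direction. Its neighbour in the same gene cluster, Irx5, had 9.06, 40.1 and 41.3 CPM in neural-gene cells. Crabp2, a retinoic acid-binding protein gene, had 20.4, 41.5 and 70.3 CPM in neural-gene cells and 21.4, 29.0 and 46.0 CPM in Sox2-only cells. For E7.5 posterior over E7.25 its log2 ratio was 0.76 (0.18 to 1.38).

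Some genes of the formative epiblast were lower at the later stages, while most of the list stayed within 2-fold. Pou3f1, a POU factor of early epiblast and neural plate, had 338, 222 and 129 CPM in neural-gene cells and 336, 234 and 144 CPM in Sox2-only cells. For E7.5 posterior over E7.0 the log2 ratio of Pou3f1 was -1.39 (-1.70 to -1.08). Fgf5, a ligand gene of the epiblast, had 70.2, 22.7 and 17.3 CPM in neural-gene cells and 83.1, 29.9 and 22.1 CPM in Sox2-only cells. Zic2, a zinc finger gene of the early neural plate, had 92.9, 50.8 and 35.1 CPM in neural-gene cells. Foxd3, a forkhead gene of the epiblast, had 29.4, 6.69 and 3.08 CPM. Of 16 pluripotency genes at 20 CPM or more, 5 were 2-fold or more lower in the E7.5 posterior library than in the E7.0 library (2.97% of all 5423 genes were) and 0 were higher (4.04%). Their median log2 ratio was -0.13, beside 0.0064 over all those genes.

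**Figure D5:**
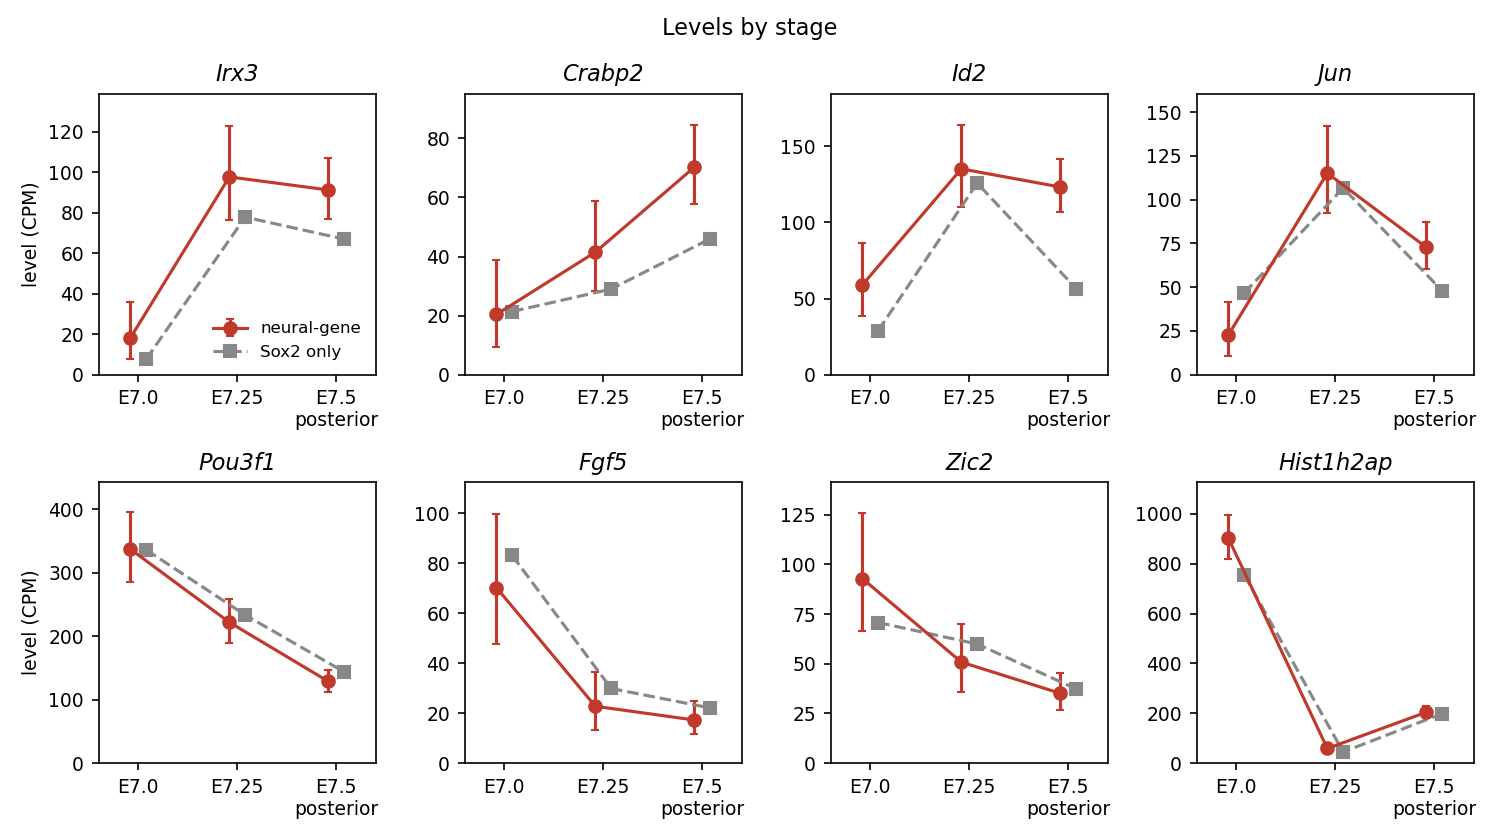
Level (CPM, vertical axis from 0) of 8 genes in the 3 libraries in order of stage (horizontal axis) in neural-gene cells (red, with exact Poisson 95% intervals) and in Sox2-only cells (grey, no interval drawn). Irx3 stands at 18.1, 97.7 and 91.2 CPM in neural-gene cells and Pou3f1 at 338, 222 and 129 CPM; Sox2-only cells change in the same direction for both.

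For Id1 in neural-gene cells the log2 ratio was 0.34 (-0.03 to 0.73) for E7.25 over E7.0 and 0.51 (0.27 to 0.75) for E7.5 posterior over E7.25. Id1 in Sox2-only cells stepped the same way, at 91.4, 129 and 154 CPM. Id3 had 433, 313 and 391 CPM in neural-gene cells and 314, 218 and 349 CPM in Sox2-only cells. Id2 had a log2 ratio of 1.20 (0.56 to 1.88) for E7.25 over E7.0 and -0.13 (-0.49 to 0.23) for E7.5 posterior over E7.25. In Sox2-only cells Id2 had 126 CPM at E7.25, and 56.6 CPM in the E7.5 posterior library. Otx2 stayed within 199 to 210 CPM in neural-gene cells at all 3 stages, with a log2 ratio of 0.08 (-0.27 to 0.43) for E7.5 posterior over E7.0. Hes1, a NOTCH target, had 40.8, 6.69 and 22.2 CPM in neural-gene cells and 44.0, 12.6 and 25.2 CPM in Sox2-only cells.

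Several of the widest steps lay in genes that stepped the same way in Sox2-only cells. Levels of these genes over whole libraries are not given. The replication-dependent histone gene Hist1h2ap had 904, 58.9 and 205 CPM in neural-gene cells and 756, 44.9 and 199 CPM in Sox2-only cells by stage. The immediate early gene Jun had 22.7, 115 and 72.7 CPM in neural-gene cells and 46.6, 107 and 47.9 CPM in Sox2-only cells. Rhox5 had 0, 64.2 and 1.85 CPM in neural-gene cells and 28.6, 144 and 5.19 CPM in Sox2-only cells. The part of cells with extraembryonic ectoderm genes in the other steps was not tested.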

How the data were processed

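Single cells of 3 mouse embryo libraries were analysed, with 1 library per stage. The authors deposited filtered UMI counts per gene and barcode made with Cell Ranger 6.0.1, per the file headers; the genome build is not given in the sources used here. Of 32285 gene IDs, 32158 were found in GENCODE M21 (GRCm38), which gave coordinates. Doublets were predicted by simulation and were left out only in an alternative. UMIs were summed per library and set and compared with edgeR 4.0.16 (quasi-likelihood, TMM, library as a block, filterByExpr, Benjamini-Hochberg adjusted p under 0.05). The block rests on both sums of a library coming from the same embryos and droplet run. DESeq2 1.42.0 in R 4.3.3 was an alternative. The 15 genes of the rule were not tested. The edgeR step was tested on simulated data and recovered 97 of 100 genes changed 2-fold against Sox2-only cells, 93 against T/Sox2 cells and 69 for the split by Six3 or Hesx1, with 4, 10 and 2 unchanged genes called in these. The simulation gave all libraries the same pooled profile, a fixed low dispersion and the same fold. It therefore did not cover stage effects or folds that differ between libraries. Genes named are those of the rule, list genes at 20 CPM or more, and the 12 called genes of highest and lowest fold at 30 CPM or more (50 CPM for stages). The members and lists were chosen with earlier results of these data known. Alternatives without extraembryonic ectoderm or node genes were chosen after seeing the data.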

Additional observations from a re-analysis of the deposited data

Results flagged for a closer look

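Fst and Jun moved in opposite directions in different libraries, and the difference between libraries was not tested. For Fst, neural-gene cells against Sox2-only cells had a log2 ratio of 0.66 at E7.0, -2.53 at E7.25, and -1.10 in the E7.5 posterior library. For Jun, an immediate early gene, neural-gene cells against Sox2-only cells had a log2 ratio of -1.04 at E7.0 and 0.60 at E7.5 posterior. Against T/Sox2 cells the log2 ratio of Jun was -1.50 at E7.0 and 0.52 at E7.5 posterior.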

How the results depend on the processing

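Asking for 2 or more neural UMIs gave 0.0126%, 0.520% and 0.332% of kept cells in order of stage, and thinning to 5000 UMIs gave 0.0955%, 1.11% and 0.692%. Against Sox2-only cells, 24 genes were called. The number was 38 with no visceral endoderm limit, 2 after thinning and 2 with DESeq2. Without the replicate block it was 0, where 181 genes had an unadjusted p under 0.05 in edgeR. Leaving out 1 library gave 2 to 26. Against T/Sox2 cells, 136 genes were called, with 36 after thinning, 14 with DESeq2, 1 without the replicate block, and 26 to 234 leaving out 1 library (86 without E7.25). Cells with Six3 or Hesx1 against neither gave 5 genes. The number was 15 at 500 detected genes, with a visceral endoderm limit of 0.05% or none, and with no TMM. It was 16 at 2000 genes, 10 at 5% mitochondrial UMIs, and 17 with upper quartile scaling or no low-count filter. It was 2 without doublets, extraembryonic ectoderm genes or node genes, 1 with DESeq2 and 0 without the replicate block. Leaving out a library, thinning and 2 neural UMIs were not run there, since too few libraries or cells remained. For E7.25 over E7.0, 203 genes became 762 at 20 CPM and 1045 with no CPM minimum. For E7.5 posterior over E7.25, 93 became 289 with 2 neural UMIs, 347 after thinning, 307 at 20 CPM and 879 with no minimum. For E7.5 posterior over E7.0, 64 became 380 and 770 at those minimums. The log2 fold change changed sign for Gm42418 against Sox2-only cells (0.078 with 2 neural UMIs, 0.047 after thinning, leaving out 1 library -0.32 to 0.0080, the highest without E7.0) and for H19 (leaving out 1 library -0.97 to 0.081, the highest without E7.25). Against T/Sox2 cells it did so for Fam173a after thinning (0.20), Calca without node genes (0.28) and Ddit4 (leaving out 1 library -1.05 to 0.21, the highest without E7.5 posterior). For E7.5 posterior over E7.25 Fst was -1.26 with 2 neural UMIs. The cause was not tested. With 26 cells at E7.0 and 1 library per stage, depth limits the low genes and stage cannot be told apart from library. For E7.5 posterior it cannot be told apart from the part of the embryo either.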

Other observations

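Cell cycle genes were not called between the neural-gene cells and the other sets. Of 16 S phase and 15 G2 and M phase genes, 0 were called against Sox2-only cells or against T/Sox2 cells by edgeR's test. Glycolysis genes were likewise not called, 0 of 12 against Sox2-only cells and 0 of 11 against T/Sox2 cells. Over all genes tested at 20 CPM, 0.101% were higher and 0.235% lower against Sox2-only cells. Against T/Sox2 cells, 0.67% were higher and 1.61% lower. Counts of 0 in lists of this size are near those shares. In cells with Six3 or Hesx1 against those with neither, 13 of 15 G2 and M phase genes had a positive log2 fold change, with a median of 0.26, and 14 of 15 S phase genes a negative one, with a median of -0.13. None of these genes passed the test, and the median over all genes tested was -0.0033.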
